A study of Homo sapiens with 21 samples.

Results

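The 9 genes described here encode the enzymes that make serine from glucose and pass its carbon to folate: PHGDH, PSAT1 and PSPH of serine synthesis, SHMT2, MTHFD2, MTHFD1L and ALDH1L2 of the mitochondrial folate pathway, and SHMT1 and MTHFD1 of the cytosolic one. They were chosen by name, as the rows of the deposited gene count table with these symbols, and are 9 of its 58735 genes. The set was drawn up with earlier results of these data known. All 9 had enough reads to be among the 16196 genes tested. RNA was sequenced from cultures labelled HepG2, a line from a human liver tumour, in 7 groups of 3 libraries that the design text calls biological replicates. All cultures were washed and kept for 6 h in serum-free DMEM, without coumarin (0 µM, the control) or with coumarin at 0.001, 0.01, 0.1, 1, 10 or 100 µM. Coumarin is a plant-derived fragrance compound, and the design sets each dose against the control. What the labels call replicates may still be repeats of a single culture, in which case the p-values below measure only technical spread.

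PHGDH oxidises a glycolytic intermediate in the first step of serine synthesis, PSAT1 adds the amino group and PSPH removes the phosphate. The hydroxymethyltransferases SHMT1 and SHMT2 then split serine into glycine and a one-carbon unit carried by folate. In mitochondria MTHFD2 oxidises that unit, MTHFD1L releases it as formate, and ALDH1L2 can oxidise it to carbon dioxide. Formate leaves for the cytosol, where MTHFD1 loads it onto folate again for purine and thymidylate synthesis. Several of these genes are known targets of ATF4, the transcription factor of the integrated stress response.

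The libraries held 27984517 to 43704155 counts each, of which 5.61% to 6.63% came from mitochondrial genes. The cells carried almost none of the markers of their label. Of 19 hepatocyte genes, 6 had no read in any library, among them ALB and SERPINA1, and only FOXA1 reached 1 CPM, a count scaled to library size. The summed hepatocyte list stood at 11 to 12.4 CPM at 100 µM and 11.2 to 11.7 CPM in control. KRT7, a keratin of simple epithelia, led another list of 4 genes. The list summed to 1110 to 1180 CPM at 100 µM and 1110 to 1250 CPM in control. Nearly all of that was KRT7, with means of 1140 CPM at 100 µM and 1190 CPM in control. KRT19 had 1 read and SOX9 83 reads in all libraries together, and EPCAM had no read. The sum of 6 mesenchymal genes, of which 5 reached 1 CPM, was 1310 to 1350 CPM at 100 µM and 1390 to 1400 CPM in control. The remaining gene, COL1A2, had 1 read in all libraries together. The 3 blood genes summed to 0.0568 to 0.145 CPM at 100 µM and 0.07 to 0.147 CPM in control, and the 3 endothelial genes to 0.582 to 0.881 CPM at 100 µM and 1.08 to 1.24 CPM in control. The mesenchymal and endothelial sums did not overlap between 100 µM and control, and their part in the results below was not tested. Within these sums COL3A1 (884 CPM at 100 µM, 952 CPM in control), PDGFRB (26.4 CPM at 100 µM, 31.9 CPM in control) and CDH5 (0.628 CPM at 100 µM, 1.04 CPM in control) were called lower by edgeR at 100 µM. Their adjusted p were 0.041, 0.00092 and 0.05 (rounded, edgeR), where 4.82% of all tested genes were called lower. For 13.9% of all tested genes every library at 100 µM stood below every control. COL1A1 (66.5 CPM at 100 µM, 57.8 CPM in control), TAGLN (73.4 CPM at 100 µM, 77.3 CPM in control) and VIM (278 CPM at 100 µM, 277 CPM in control) were not called.

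At 100 µM the 3 serine synthesis genes and 2 of the 4 mitochondrial genes rose, and neither cytosolic gene passed the test. By edgeR's quasi-likelihood test with Benjamini-Hochberg adjustment over all tested genes, at a threshold of 0.05, 5 of the 9 genes were called higher and none lower. Of all tested genes 8.58% were called at this dose, 3.77% as higher and 4.82% as lower. Since the 9 genes were chosen with earlier results known, these shares give a scale and no test of the set. Every library at 100 µM stood above every control for these 5 genes and for ALDH1L2, as it did for 13.1% of all tested genes. The rises in level were between 22.0% for SHMT2 and 50.3% for PSPH. Levels are given as TMM-scaled CPM, which compare a gene between libraries and not genes with each other. In bulk RNA, fewer cells expressing a gene and less RNA of it per cell cannot be told apart.

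The promoters of genes that moved together are shown first, beside that of MTHFD1L, which did not pass the test. RefSeq promoter windows on GRCh38.p14, from 250 bases before to 50 bases after an annotated start, were at hand for 6 of the 9 genes, and none was found for PSPH, SHMT2 and ALDH1L2. Each sequence is on the plus strand, and capitals mark CCAAT and, in MTHFD1L, the match to TGATGNAA. TGATGNAA is the core of a composite element that ATF4 and C/EBP proteins bind.
PHGDH chr1:119711684-119711983: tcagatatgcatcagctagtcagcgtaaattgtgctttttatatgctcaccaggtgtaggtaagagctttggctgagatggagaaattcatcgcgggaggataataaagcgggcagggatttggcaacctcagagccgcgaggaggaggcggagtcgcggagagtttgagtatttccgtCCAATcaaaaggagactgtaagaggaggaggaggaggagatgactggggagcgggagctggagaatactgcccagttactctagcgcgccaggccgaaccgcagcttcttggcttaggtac
PSAT1 chr9:78296875-78297174: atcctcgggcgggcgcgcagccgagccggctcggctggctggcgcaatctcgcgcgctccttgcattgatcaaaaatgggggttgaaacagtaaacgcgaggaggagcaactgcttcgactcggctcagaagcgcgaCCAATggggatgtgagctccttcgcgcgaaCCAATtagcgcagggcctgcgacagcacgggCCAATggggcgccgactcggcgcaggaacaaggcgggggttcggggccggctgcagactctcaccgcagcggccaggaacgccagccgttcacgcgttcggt
MTHFD2 chr2:74198365-74198664: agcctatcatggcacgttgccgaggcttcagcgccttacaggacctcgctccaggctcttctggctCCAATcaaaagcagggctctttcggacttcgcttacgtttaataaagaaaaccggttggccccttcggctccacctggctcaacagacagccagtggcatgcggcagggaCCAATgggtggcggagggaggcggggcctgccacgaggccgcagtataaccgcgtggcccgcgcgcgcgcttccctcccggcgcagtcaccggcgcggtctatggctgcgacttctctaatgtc
MTHFD1L chr6:150866236-150866535: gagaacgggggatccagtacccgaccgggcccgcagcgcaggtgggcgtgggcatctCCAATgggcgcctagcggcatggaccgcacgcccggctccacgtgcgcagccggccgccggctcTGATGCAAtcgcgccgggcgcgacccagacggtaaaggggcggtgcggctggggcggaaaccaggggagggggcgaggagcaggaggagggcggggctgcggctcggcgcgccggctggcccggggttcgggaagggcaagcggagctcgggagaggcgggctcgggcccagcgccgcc

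Both strands of all windows were searched. TGATGNAA was absent from the windows of PHGDH, PSAT1, MTHFD2, SHMT1 and MTHFD1, and was found in MTHFD1L, 1 of 6 genes, at a single site that 3 of its 4 windows, which overlap, hold. Of all genes with windows 4.46% had it, and among all 35116 windows 3.62%. The other motifs were picked after the sequences had been seen. CCAATCAAAAG is the longest run that starts with CCAAT and is shared by the windows of PHGDH, from base 180, and MTHFD2, from base 67, and 0.037% of all windows held it. Since the run was taken from these windows, its rarity says nothing more about them. CCAAT alone was in a window of all 6 genes, against 39.7% of all genes. It was in 8 of their 9 windows, against 34.6% of all windows, and 3 of the 4 MTHFD1L windows share a single site. CCAAT too was picked from these windows, so the contrast says nothing more about them. All of these hits are matches of letters in these windows and do not show binding.

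PHGDH (chromosome 1, 119648411 to 119744226, plus strand, GRCh38) had 263, 252 and 248 CPM at 100 µM, against 209, 196 and 204 CPM in control. The lowest library at 100 µM lay above the highest control. The log2 fold change was 0.32 (SE 0.04, 95% interval 0.24 to 0.41, adjusted p = 1.9e-06, edgeR). Over the lower doses the means were 207 ± 10 CPM at 0.001 µM, 214 ± 2.9 at 0.01 µM, 214 ± 13 at 0.1 µM and 208 ± 4.5 at 1 µM (SD, n = 3 each), beside 203 ± 6.3 CPM in control. The deposited coordinates take in 9217 bases of exon, while the median coding transcript has 1882, and no annotated gene that overlaps it was found.

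PSAT1 (chromosome 9, 78297143 to 78330093, plus strand) had 372, 379 and 372 CPM at 100 µM, against 293, 277 and 279 CPM in control. The 3 libraries at 100 µM lay close together and far above all controls. Its log2 fold change was 0.40 (SE 0.03, 95% interval 0.33 to 0.47, adjusted p = 1.6e-10, edgeR). From 0 to 1 µM the mean moved little, 283 ± 8.7 CPM in control, 284 ± 5.3 at 0.001 µM, 286 ± 6.7 at 0.01 µM, 287 ± 5.7 at 0.1 µM and 290 ± 6.9 at 1 µM (SD, n = 3 each).

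PSPH (chromosome 7, 56011051 to 56051604, minus strand), which catalyses the last step, moved most among the called genes. It had 110, 116 and 114 CPM at 100 µM, against 77.1, 75.4 and 74.1 CPM in control. The groups did not overlap, and the log2 fold change was 0.59 (SE 0.04, 95% interval 0.50 to 0.67, adjusted p = 3.7e-12, edgeR). Its unprocessed pseudogene PSPHP1, a copy that reads could be shared with, had 35865 counts in all libraries, 59.2% of the 60586 counts of PSPH. PSPHP1 averaged 47.5 ± 1.9 CPM at 100 µM and 48.9 ± 1.2 CPM in control (SD, n = 3 each), a log2 fold change of -0.04 that did not pass the edgeR test (adjusted p = 0.71). How the counting divided reads between the gene and its copy is not given in the sources used here, so the level of PSPH is uncertain.

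SHMT2 (chromosome 12, 57229327 to 57234935, plus strand) had 306, 313 and 316 CPM at 100 µM, against 257, 250 and 259 CPM in control. All libraries at 100 µM were above all controls. The log2 fold change was 0.29 (SE 0.04, 95% interval 0.20 to 0.37, adjusted p = 8.6e-06, edgeR). MTHFD2 (chromosome 2, 74198562 to 74217565, plus strand), the mitochondrial dehydrogenase and cyclohydrolase, had 287, 301 and 295 CPM at 100 µM, against 237, 228 and 226 CPM in control. Again no library overlapped, with a log2 fold change of 0.35 (SE 0.04, 95% interval 0.28 to 0.43, adjusted p = 3.5e-08, edgeR).

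The other 2 mitochondrial genes were not called. MTHFD1L (chromosome 6, 150865549 to 151101887, plus strand), which releases formate from folate, had 103, 106 and 102 CPM at 100 µM, against 105, 105 and 108 CPM in control. These groups overlapped, and the 95% interval of the log2 fold change ran from -0.11 to 0.04 around -0.03 (adjusted p = 0.66, edgeR). ALDH1L2 (chromosome 12, 105019784 to 105084577, minus strand), a formyl-folate dehydrogenase, was barely present, with 18, 19 and 17 reads at 100 µM and 14, 13 and 14 reads in control. That is 0.593, 0.54 and 0.494 CPM at 100 µM, against 0.385, 0.455 and 0.412 CPM in control. The groups did not overlap, but the interval of the log2 fold change, -0.29 to 1.05 around 0.38, was too wide for a call (adjusted p = 0.53, edgeR). Reads of C12orf45, which overlaps ALDH1L2 on the other strand and had 19018 counts beside its 290, cannot be told apart from its own unless strand was counted, and whether it was is not stated. C12orf45 averaged 28.2 ± 2.3 CPM at 100 µM and 25.6 ± 0.33 CPM in control (SD, n = 3 each), a log2 fold change of 0.13 (adjusted p = 0.14, edgeR). It was called with a gene length offset (0.19, adjusted p = 0.03) and without 100 µM replicate 3 (0.20, adjusted p = 0.043).

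The cytosolic genes stayed near their control levels. SHMT1 (chromosome 17, 18327860 to 18363563, minus strand) had 85.3, 79.4 and 76.9 CPM at 100 µM, against 80.4, 76.5 and 81.1 CPM in control. The groups overlapped throughout, and the log2 fold change of 0.02 had a 95% interval of -0.07 to 0.11 (adjusted p = 0.84, edgeR). MTHFD1 (chromosome 14, 64388031 to 64463457, plus strand) had 254, 257 and 256 CPM at 100 µM, against 258, 263 and 266 CPM in control. All 3 libraries at 100 µM lay under the lowest control, as they did for 13.9% of all tested genes, and the log2 fold change of -0.04 (95% interval -0.11 to 0.03) did not pass the test (adjusted p = 0.57, edgeR). The upper ends of both intervals lie below 0.29, the smallest estimate among the 5 called genes. SMCR8 overlaps SHMT1 on the other strand with 71.1% as many counts, and ZBTB25 overlaps MTHFD1 with 6.32%. Neither neighbour was called at 100 µM (log2 fold change 0.01, adjusted p = 0.91, and 0.07, adjusted p = 0.63, edgeR).

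**Figure D1:**
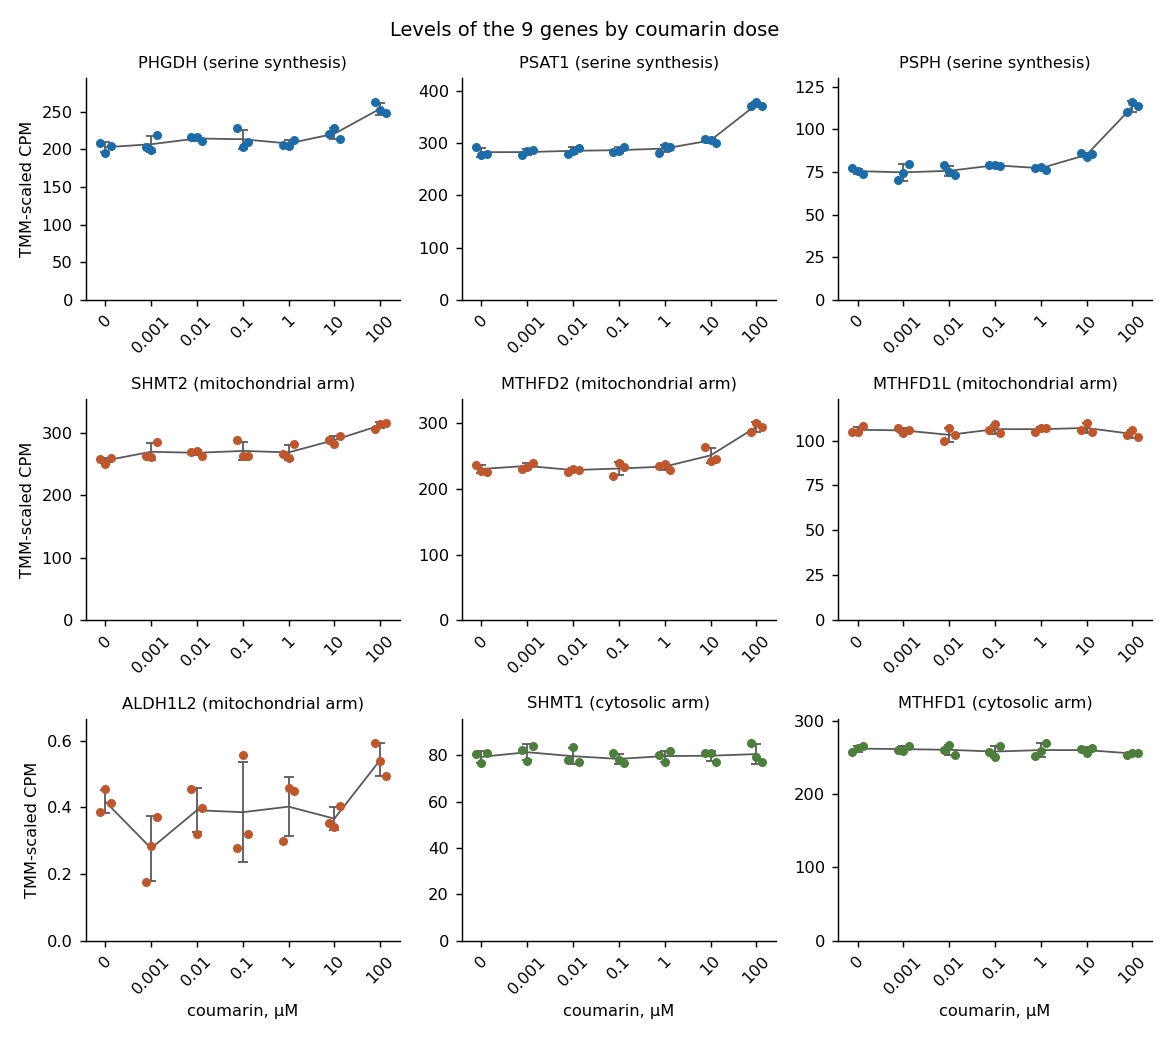
TMM-scaled CPM (vertical axis, from 0, with its own scale in each panel) against coumarin dose in µM (horizontal axis, equally spaced groups) for the 9 genes. Points are libraries, lines join group means and bars are SD (n = 3). PHGDH, PSAT1, PSPH, SHMT2 and MTHFD2 stand highest at 100 µM, MTHFD1L, SHMT1 and MTHFD1 are level over all doses, and ALDH1L2 stays under 0.6 CPM.

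Over the 7 groups together, the F-test of edgeR called the same 5 genes, with adjusted p between 8.5e-13 for PSPH and 0.00015 for SHMT2, where 4.65% of all tested genes were called. The other 4 had adjusted p between 0.59 for ALDH1L2 and 0.98 for MTHFD1. No gene of the 9 was called by edgeR at 0.001, 0.01, 0.1 or 1 µM, where 0% of all tested genes were called. By unadjusted p under 0.05, 1 of the 9 passed at 0.1 µM, SHMT2 with a log2 fold change of 0.08 (unadjusted p = 0.046, adjusted p = 0.82, edgeR), and none passed at the other 3 doses. The same threshold was passed by 8.21%, 8.74%, 6.09% and 3.76% of all tested genes at 0.001, 0.01, 0.1 and 1 µM. DESeq2 and limma called none of the 9 at these doses. Leaving ALDH1L2 aside, the fold changes at these 4 doses lay between -0.04 and 0.08 on the log2 scale. ALDH1L2, with few reads, had -0.55 at 0.001 µM (95% interval -1.28 to 0.17, adjusted p = 0.65, edgeR). At 0.01, 0.1 and 1 µM it had -0.09, -0.09 and -0.04.

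At 10 µM no gene of the 9 was called either, in the edgeR test that called 0.321% of all tested genes, 0.241% as higher and 0.0803% as lower. At an unadjusted p under 0.05, 5 of the 9 passed, as did 1938 of the 16196 genes tested. PSPH had 86.1, 83.8 and 85.4 CPM and SHMT2 had 288, 282 and 294 CPM at 10 µM, all above every control library. Their log2 fold changes were 0.17 each (adjusted p = 0.067 for PSPH and 0.051 for SHMT2, edgeR). PHGDH with 220, 229 and 214 CPM, PSAT1 with 309, 307 and 301 CPM and MTHFD2 with 264, 243 and 246 CPM were also above all their controls. Their log2 fold changes were 0.12, 0.11 and 0.12, with adjusted p of 0.22, 0.16 and 0.15 (edgeR). So the 5 genes called at 100 µM were those with every 10 µM library above every control, where 8.78% of all tested genes were so placed. The 2 comparisons share their control libraries. DESeq2 called 3 of the 9 at 10 µM, PSAT1, PSPH and SHMT2, with adjusted p of 0.031, 0.019 and 0.011, and limma called none. Over all genes DESeq2 called 135 at 10 µM and limma 26, beside 52 by edgeR. SHMT1, MTHFD1 and MTHFD1L had log2 fold changes of 0.01, -0.01 and 0.01 at this dose (adjusted p of 0.97, 0.94 and 0.92, edgeR).

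**Figure D2:**
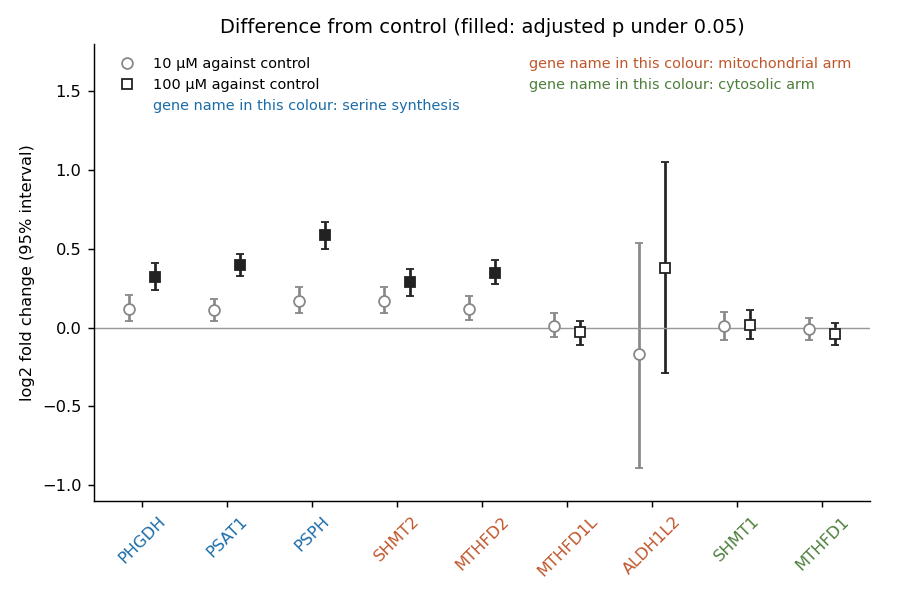
Log2 fold change from control with its 95% interval (vertical axis) for the 9 genes (horizontal axis), at 10 µM as circles and at 100 µM as squares, filled where the adjusted p was under 0.05. The squares of PHGDH, PSAT1, PSPH, SHMT2 and MTHFD2 lie between 0.29 and 0.59, while those of MTHFD1L, SHMT1 and MTHFD1 lie within 0.04 of 0.

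The step between the top 2 doses, a contrast within the same model of all libraries, was called for 4 of the 9 genes, all higher at 100 µM, where 4.53% of all tested genes were called, 2.03% as higher and 2.51% as lower. PSPH was 0.42 higher at 100 µM than at 10 µM on the log2 scale (adjusted p = 2e-08, edgeR), PSAT1 0.29 (3.9e-07), MTHFD2 0.23 (0.00017) and PHGDH 0.20 (0.0033). SHMT2 averaged 312 ± 5.2 CPM at 100 µM and 288 ± 6.1 CPM at 10 µM (SD, n = 3 each). Its log2 difference of 0.11, with a 95% interval of 0.03 to 0.20, did not pass (adjusted p = 0.10, edgeR). In a fit of only the 6 libraries of these doses it did (adjusted p = 0.016, edgeR), which makes 5 of the 9 genes, beside 1168 calls over all genes against 734 in the model of all libraries. The estimates for SHMT2 against control were thus 0.17 at 10 µM and 0.29 at 100 µM, and those for PSPH 0.17 and 0.59. Whether the step differs between these genes was not tested.

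To set the mitochondrial against the cytosolic enzyme within each library, the deposited FPKM, which are scaled per gene length, were divided. SHMT2 over SHMT1 was 5.84 ± 0.40 at 100 µM and 4.85 ± 0.066 in control (SD, n = 3 each). Every library at 100 µM (5.40 to 6.18) exceeded every control (4.81 to 4.93). The log2 difference was 0.27, with p = 0.1 in a two-sided exact permutation test, the smallest p that 3 libraries against 3 allow, and 0.15 adjusted over the 3 ratios. MTHFD2 over MTHFD1 was 2.22 ± 0.039 at 100 µM and 1.69 ± 0.066 in control, with no overlap (2.18 to 2.25 against 1.64 to 1.76). Its log2 difference was 0.39, with the same exact permutation p = 0.1 and 0.15 adjusted. MTHFD1L over MTHFD1 was 0.757 ± 0.015 at 100 µM and 0.755 ± 0.0086 in control (log2 difference 0.00, exact permutation p = 1).

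Across doses the ratio of SHMT2 to SHMT1 had means of 4.85, 4.98, 5.06, 5.20, 5.07, 5.44 and 5.84, in the order of 0, 0.001, 0.01, 0.1, 1, 10 and 100 µM. In the same order MTHFD2 to MTHFD1 had means of 1.69, 1.73, 1.69, 1.72, 1.73, 1.86 and 2.22. Both ratios were highest at 100 µM and next highest at 10 µM. ALDH1L1, the cytosolic partner of ALDH1L2, had under 10 counts in some library, so that ratio was not formed.

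**Figure D3:**
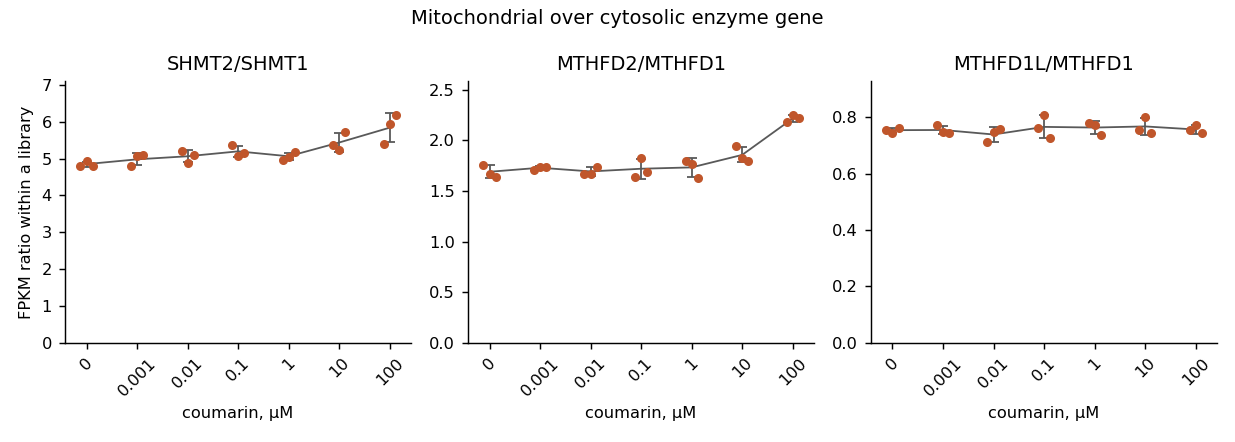
Ratio of FPKM of the mitochondrial to the cytosolic enzyme gene within each library (vertical axis, from 0) against coumarin dose in µM (horizontal axis) for 3 pairs. Points are libraries, bars are SD (n = 3). SHMT2/SHMT1 and MTHFD2/MTHFD1 are highest at 100 µM, at 5.84 and 2.22 against 4.85 and 1.69 in control, while MTHFD1L/MTHFD1 stays near 0.76.

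By mean deposited FPKM over the 21 libraries, the order of levels was PSAT1 at 141, SHMT2 at 58.5, MTHFD2 at 51.3, PSPH at 30.8, MTHFD1 at 28.5, PHGDH at 24.2, MTHFD1L at 21.6, SHMT1 at 11.3 and ALDH1L2 at 0.0479. PSPH was above MTHFD1 in only 14 of 21 libraries and MTHFD1 above PHGDH in 20 of 21, while the other neighbours kept their order in all 21. The order depends on the gene length. The deposited lengths equal the union of all exons in GENCODE 29 for 9 of 9 genes. Scaled to the median coding transcript in its place, PHGDH moved to rank 4 at 119 and PSPH to rank 7 at 39.5, with PSAT1 at 172, SHMT2 at 141 and MTHFD2 at 134 still ahead. The 3 serine synthesis genes were thus spread over a wide range, and the mitochondrial SHMT2 and MTHFD2 stood above their cytosolic partners SHMT1 (40.0) and MTHFD1 (53.6) on this scale too.

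Over the 21 libraries, with the dose groups included, the levels of the 5 called genes were positively correlated in every pair, with Pearson's r of log2 CPM from 0.79 for SHMT2 and MTHFD2 to 0.97 for PSAT1 and PSPH. It was 0.96 between PSAT1 and MTHFD2, 0.95 between PSPH and MTHFD2 and 0.91 between PHGDH and SHMT2. The 5 genes were picked because each rose at the highest dose. Positive r over libraries that include that dose was thus built in, and its size is no evidence of shared regulation. The 21 libraries fall into dose groups, so r was also taken after the dose means were removed. It was then 0.65 for PHGDH and SHMT2, 0.49 for PSAT1 and MTHFD2, 0.43 for PSPH and MTHFD2, 0.42 for PSPH and SHMT2, 0.24 for PHGDH and PSPH, 0.17 for PSAT1 and PSPH and 0.15 for PHGDH and PSAT1. The 3 other pairs were below 0, PSAT1 and SHMT2 at -0.05, SHMT2 and MTHFD2 at -0.24 and PHGDH and MTHFD2 at -0.33. PHGDH and SHMT1 had r of 0.35 over all libraries and 0.73 within doses. All are descriptions over 21 libraries that share their dose groups and scaling.

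Among 11573 genes whose log2 CPM averaged 1 or more, the profiles over the 21 libraries most like PSAT1 were those of CHAC1 (r = 0.975), PCK2 (0.970) and SESN2 (0.968). For PSPH they were CHAC1 (0.973), GPT2 (0.965) and NUPR1 (0.960), and for MTHFD2 they were CHAC1 (0.949), GPT2 (0.942) and PCK2 (0.931). PHGDH was most like TRIB3 (0.947), AVPI1 (0.931) and PCK2 (0.931). For SHMT2 they were AVPI1 (0.937), DDIT4 (0.918) and HIST1H1C (0.913). These r include the differences between dose groups, and were not taken with the dose means removed.

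The genes around the pathway are set beside the 3.77% of all tested genes called higher and the 4.82% called lower at 100 µM. Their lists too were chosen with earlier results of these data known. Of 15 other folate genes 13 were tested, and 1 rose (7.69% called) and 0 fell at 100 µM, with a median log2 fold change of 0.06 against 0 over all tested genes. The gene that rose was SLC25A32, which carries folate into mitochondria, at 2.1 ± 0.25 CPM at 100 µM and 1.17 ± 0.23 CPM in control (SD, n = 3 each). Its log2 fold change was 0.85 (adjusted p = 0.003, edgeR), and at 10 µM it was 0.78 (adjusted p = 0.063, edgeR). MTHFS (log2 fold change 0.30, adjusted p = 0.14, edgeR) and MTHFD2L (-0.18, adjusted p = 0.25, edgeR) were not called. TYMS, the thymidylate synthase that uses one-carbon units, had 76.3 ± 4.3 CPM at 100 µM and 72.7 ± 0.32 CPM in control (adjusted p = 0.36, edgeR).

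Among genes of serine and glycine transport and breakdown, 16 of 25 were tested, 3 rose and 1 fell (25% called), with a median of 0.02. The 3 that rose encode transporters at the plasma membrane. The glycine transporter SLC6A9 had 67.8 ± 3.1 CPM at 100 µM and 48.2 ± 3.8 CPM in control, a log2 fold change of 0.49 (adjusted p = 4.8e-08, edgeR). SLC1A5, a carrier of neutral amino acids, had 306 ± 10 CPM at 100 µM and 231 ± 10 CPM in control (0.40, adjusted p = 1.3e-07, edgeR), and its relative SLC1A4 60.6 ± 2.2 CPM at 100 µM and 47.4 ± 3.1 CPM in control (0.35, adjusted p = 7.3e-06, edgeR). SFXN1, which brings serine into mitochondria, fell slightly to 173 ± 3.2 CPM at 100 µM, against 189 ± 3.1 CPM in control (-0.13, adjusted p = 0.0098, edgeR). That call was lost without control replicate 1 (adjusted p = 0.082), without 100 µM replicate 1 (0.092) and with no filter on low counts (0.062).

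Some steps of purine synthesis, though not all, consume one-carbon units. None of the 12 genes listed for this pathway rose at 100 µM and 3 fell (25% called), with a median of -0.07. PRPS2 had 86 ± 1.3 CPM at 100 µM and 95.1 ± 5.7 CPM in control (log2 fold change -0.14, adjusted p = 0.023, edgeR). PAICS had 420 ± 1.9 CPM at 100 µM and 458 ± 16 CPM in control (-0.13, adjusted p = 0.029, edgeR), and GMPS 118 ± 1.3 CPM at 100 µM and 128 ± 1.6 CPM in control (-0.12, adjusted p = 0.037, edgeR). These calls were fragile. Each was lost when control replicate 1 or 2, or 100 µM replicate 1 or 2, was left out, PAICS and GMPS also without 100 µM replicate 3, and GMPS without any of the 6 libraries, with adjusted p between 0.052 and 0.18. Those of PAICS and GMPS were also lost with no filter on low counts (adjusted p of 0.052 and 0.1) and with a gene length offset (0.061 and 0.098), and that of PRPS2 in a fit of only the 6 libraries compared (0.05). PPAT was not called (-0.14, adjusted p = 0.11, edgeR). Nor were GART (-0.01, adjusted p = 0.92, edgeR) and ATIC (-0.05, adjusted p = 0.48, edgeR), whose steps consume one-carbon units.

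In the methionine cycle and transsulfuration, 10 of 13 genes were tested and 1 rose (10% called), with a median of 0.05. This was CTH, which releases cysteine from cystathionine, with 36.7 ± 0.5 CPM at 100 µM and 23.7 ± 0.33 CPM in control (0.63, adjusted p = 1.6e-10, edgeR). MTR, MAT2B and MTAP were not called, with log2 fold changes of -0.09, -0.09 and -0.11 (adjusted p of 0.18, 0.22 and 0.22, edgeR). Of 8 genes of glycolysis and glutamate metabolism, not all of which feed serine synthesis, 1 rose (12.5% called) and none fell, with a median of -0.02. GPT2, the mitochondrial alanine transaminase, had 71.7 ± 1.6 CPM at 100 µM and 44.1 ± 1.6 CPM in control (0.70, adjusted p = 1.7e-12, edgeR). It was also called at 10 µM (0.24, adjusted p = 0.021, edgeR). PGK1, a glycolytic kinase upstream of PHGDH, was not called (-0.06, adjusted p = 0.42, edgeR), nor were GLUD1 (-0.10, adjusted p = 0.10) and GOT1 (0.07, adjusted p = 0.32).

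**Figure D4:**
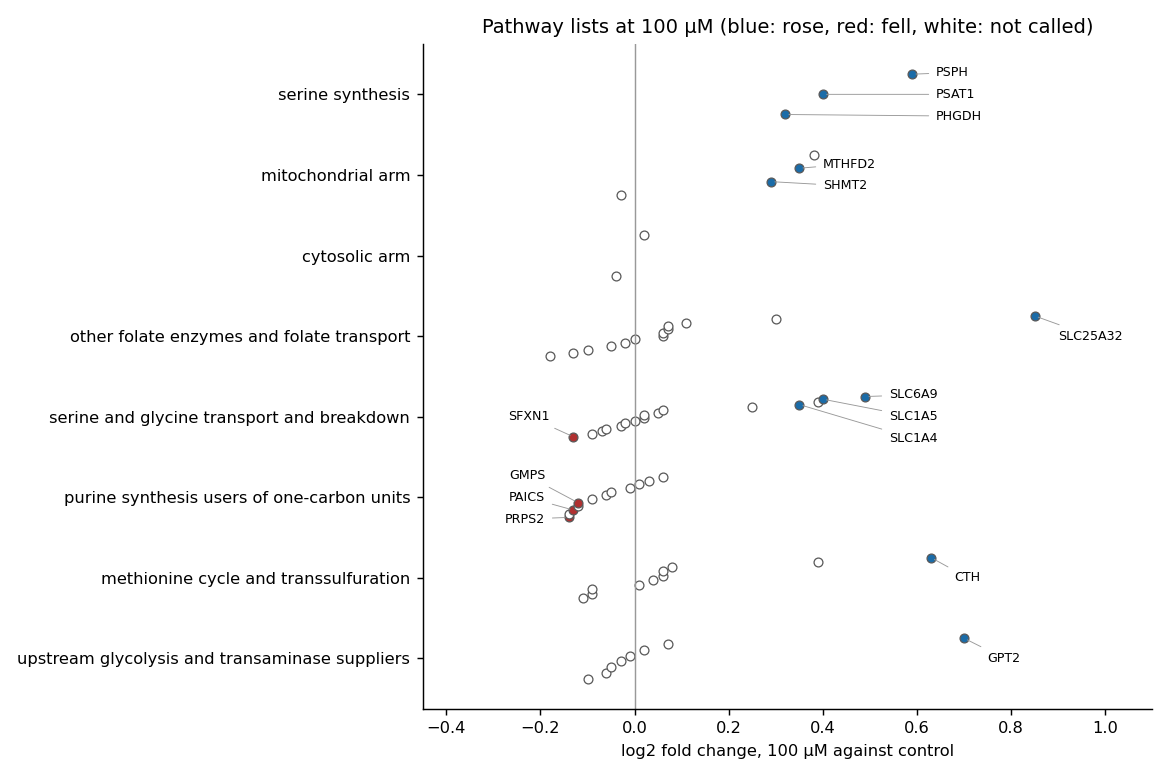
Log2 fold change at 100 µM against control (horizontal axis) for each tested gene of 8 lists (rows), blue where it rose, red where it fell and white where it was not called, with the called genes named. In 3 of the lists beyond the 9 genes a single gene rose, SLC25A32 at 0.85, CTH at 0.63 and GPT2 at 0.70, and the purine list holds only falls among its called genes.

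The 10 integrated stress response genes set beside them, a list chosen with earlier results of these data known, all rose at 100 µM. Of all tested genes 3.77% were called higher. The median log2 fold change of the 10 was 0.91. It was 0.40 for the 3 serine synthesis genes, 0.32 for the 4 mitochondrial genes and -0.01 for the 2 cytosolic genes. Of the mitochondrial genes, MTHFD1L (-0.03, adjusted p = 0.66, edgeR) and ALDH1L2 (0.38, adjusted p = 0.53, edgeR) were not called. ATF4 itself had 476 ± 6.4 CPM at 100 µM and 377 ± 18 CPM in control (0.34, adjusted p = 5.4e-07, edgeR). CHAC1, a glutathione-degrading enzyme, had 26.3 ± 0.33 CPM at 100 µM and 3.56 ± 0.27 CPM in control (2.88, adjusted p = 7.1e-22, edgeR), and was the only 1 of the 10 called at 10 µM. TRIB3, a pseudokinase, had 131 ± 5.3 CPM at 100 µM and 75.1 ± 3.3 CPM in control (0.80, adjusted p = 1e-13, edgeR). ASNS, the asparagine synthetase, had 5.69 ± 0.04 CPM at 100 µM and 2.14 ± 0.6 CPM in control (1.43, adjusted p = 1.9e-07, edgeR). The fold changes of the 5 called enzymes of serine and folate metabolism were thus smaller than the median of this list and spanned that of ATF4.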

How the data were processed

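Total RNA was purified on poly(dT) beads and made into cDNA, per the labels' protocols. The deposited counts are whole numbers per gene, and the deposited FPKM are the authors' values. HISAT2, DESeq2 and GRCh38 appear, with no role stated, per the submitters' processing notes. No source used here names the counter, the annotation or whether strand was used. FPKM equalled counts per gene length and a library constant (0.948 to 1 of the count total).

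Counts were fitted with edgeR 4.0.16 (R 4.3.3): filterByExpr, TMM, 1 robust quasi-likelihood model of 7 groups with 14 residual degrees of freedom, and Benjamini-Hochberg adjustment over 16196 genes at 0.05. The biological coefficient of variation was 0.0436, and 3 counts equal 0.0686 to 0.107 CPM, counting error only. Counts of replicate pairs differed by more than sampling noise (2.74 to 12.8 for chi-square over its degrees of freedom). FPKM ratios were tested with exact permutations (scipy 1.17.1). Alternatives used DESeq2 1.42.0, DESeq2 size factors, limma 3.58.1 on log2(FPKM + 1) for genes with a mean FPKM of at least 0.5, other filters, a replicate block, a gene length offset, the 6 libraries compared alone, and each library left out in turn. The gene set and lists were chosen with earlier results of these data known. All 9 genes are named, and of each pathway list up to 4 genes with the smallest p at 100 µM. GART and ATIC are named besides. Of the stress response list ATF4, ASNS, CHAC1 and TRIB3 are named. Marker genes are given as levels or reads, with adjusted p for those called. Figures used matplotlib 3.10.9.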

Additional observations from a re-analysis of the deposited data

How the results depend on the processing

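The 5 genes called at 100 µM were called in 15 of 15 settings each, with adjusted p of at most 0.00091 (SHMT2), and the count stayed at 5, also with the replicate number as a block. The numbers do not pair the libraries: deviations of same-numbered libraries correlated between -0.08 and 0.06, and 7 of 21 libraries correlated best with their own number. The block could not change the log2 differences of 0.27 for SHMT2/SHMT1 and 0.39 for MTHFD2/MTHFD1, which rest on the same group means. Of the calls of the 9 genes, it changed only that of SHMT2 at 10 µM (adjusted p = 0.041, edgeR). Of 1122 values of the 9 genes, 1113 kept their side of the threshold and 9 gained a call, all at 10 µM except SHMT2 between 100 and 10 µM with 6 libraries (adjusted p = 0.016). At 10 µM SHMT2 was called with no filter (0.0063), a length offset (0.044), 6 libraries (0.043) or DESeq2 (0.011), PSPH with no filter (0.028) or DESeq2 (0.019), and PSAT1 with DESeq2 (0.031). The sign of 61 uncalled estimates turned.

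Without a filter the calls over all genes were 10, 20, 5, 2 and 302 at 0.001, 0.01, 0.1, 1 and 10 µM and 1415 over 7 doses. DESeq2 called 1 at each of 0.01, 0.1 and 1 µM, 135 at 10 µM and 1148 over 7 doses. Limma called 2 at 0.01, 1 at 0.1 and 26 at 10 µM. With 6 libraries the calls were 2 at 0.1 µM and 1168 between 100 and 10 µM. Leaving out libraries gave 0 to 1 calls at 1 µM, 7 to 59 at 10 µM, 699 to 1603 at 100 µM, 282 to 662 between 100 and 10 µM and 361 to 1144 over 7 doses, and -0.012 to 0.017 for the log2 difference of MTHFD1L/MTHFD1, which turned sign without 100 µM replicate 2 or control replicate 2. The counts over all genes thus depend on single libraries, while those of the 9 genes at 100 µM did not. The cause was not tested. Depth limits ALDH1L2, at 6 to 24 reads per library.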
